A study of Mus musculus with 22 samples.

Results

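To follow active chromatin at genes that supply the red cell with energy and protect it from oxidants, H3K4me3 and H3K27ac peaks were examined at *Pklr*, *Bpgm*, *Hk1*, *Gpi1*, *Gpx1*, *Prdx2*, *Cat*, *Sod1*, and *Gclm* in differentiating G1ER (G1E-ER4) cells. The genes were chosen by name, 9 of the 21842 protein-coding genes of GENCODE M21 (mm10), and each locus was the gene body plus 20 kb on each side. G1ER is a mouse erythroid progenitor line, 1 subclone of G1E, without endogenous *Gata1*. It expresses constitutively a GATA1 fused to the ligand-binding part of the estrogen receptor (GATA1-ER), and it was grown in 15% FBS with 50 ng/mL SCF and 2 U/mL EPO. All groups share this genotype and medium. β-estradiol at 1e-07 M, which activates GATA1-ER and starts maturation, was absent at 0 h and present for 2, 6, 12, or 24 h in the others. Each histone mark had 2 replicate peak lists at each of the 5 time points, and CTCF, a protein found at loop anchors, had 1 list at 0 h and 1 at 24 h, without a replicate.

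A mature red cell has no mitochondria and draws its ATP from glycolysis. Hexokinase (*Hk1*) opens the pathway, glucose phosphate isomerase (*Gpi1*) takes the next step, and pyruvate kinase (*Pklr*) closes it. Bisphosphoglycerate mutase (*Bpgm*) branches off to make 2,3-BPG, which lowers the oxygen affinity of hemoglobin. Oxygen bound to heme steadily yields superoxide, which *Sod1* converts to hydrogen peroxide. Glutathione peroxidase (*Gpx1*), peroxiredoxin (*Prdx2*), and catalase (*Cat*) remove the peroxide, and *Gclm* encodes the modifier subunit of the enzyme that starts glutathione synthesis. H3K4me3 lies mostly at active promoters, and H3K27ac at active promoters and enhancers.

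The lists ranged from 12925 to 14452 peaks for H3K4me3 and from 17247 to 18333 for H3K27ac. They give positions and a score but no read counts, so depth is unknown and the absence of a peak is not a measured absence of the mark. No histone list held a peak longer than 9200 bp, and the score fell with length among the long peaks. The median H3K27ac score was 477 for peaks of 3000 to 4000 bp, 220 for 6000 to 7000 bp, and 71.6 for 8000 to 9000 bp, where the lowest score in any list was 50. Among H3K27ac regions holding a protein-coding TSS, 97.1% had a peak in all 10 lists when their longest peak was 2000 to 4000 bp, and 30.1% when it was 8000 bp or more. Part of the gaps described here fell in regions of that kind, and the part of length in them was not tested. As a check of the cell type, H3K4me3 covered a TSS in at least 9 lists for 7 of 8 erythroid markers (all but *Tal1*, in none), and in no list for all 8 markers of other cell types, from *Cd3e* to *Myod1*. H3K27ac covered a TSS in all 10 lists for 1 of the 8 erythroid markers, *Klf1*, and in no list for *Tal1* and *Hbb-bt*.

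The promoters of *Pklr* and *Hk1* and the last sequence are shown because H3K27ac there was missing from some lists, that of *Cat* because it lies beside the last, and those of *Sod1* and *Gclm* because H3K27ac was over the first in all lists and over the second in none. The first 5 lie upstream of a RefSeq start (GRCm38.p6), are written in the direction of transcription, and are cut to the stretch outside annotated exons of protein-coding genes. The last comes from an H3K27ac region of *Cat* that was lost, with a peak in both lists at 0 h and in neither at 24 h. It is the central 300 bases of the stretch that the peaks of both 0 h lists covered, which held no coding-gene exon, written in the direction of *Cat*. Capitals mark matches on either strand to a GATA core (AGATAA, where the first letter may also be T and the last G), a CACC box (CCNCNCCC), an antioxidant response element core (ARE, TGACNNNGC), or an AP-1/NFE2 core (TGANTCA).
*Pklr*, upstream start, chr3:89135892-89136141 (+): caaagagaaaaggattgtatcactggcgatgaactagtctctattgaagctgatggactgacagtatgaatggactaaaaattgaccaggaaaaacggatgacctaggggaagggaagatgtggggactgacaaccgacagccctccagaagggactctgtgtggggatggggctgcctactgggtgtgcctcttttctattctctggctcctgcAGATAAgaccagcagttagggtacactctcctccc
*Hk1*, internal start, chr10:62340543-62340671 (-): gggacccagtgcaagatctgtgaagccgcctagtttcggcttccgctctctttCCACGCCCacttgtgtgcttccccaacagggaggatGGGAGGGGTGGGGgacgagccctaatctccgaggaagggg
*Cat*, chr2:103485161-103485403 (-): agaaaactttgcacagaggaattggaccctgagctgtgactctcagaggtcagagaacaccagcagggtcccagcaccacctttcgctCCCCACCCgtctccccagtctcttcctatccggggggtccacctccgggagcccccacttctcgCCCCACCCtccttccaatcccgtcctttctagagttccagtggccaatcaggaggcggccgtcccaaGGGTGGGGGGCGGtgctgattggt
*Sod1*, chr16:90220512-90220753 (+): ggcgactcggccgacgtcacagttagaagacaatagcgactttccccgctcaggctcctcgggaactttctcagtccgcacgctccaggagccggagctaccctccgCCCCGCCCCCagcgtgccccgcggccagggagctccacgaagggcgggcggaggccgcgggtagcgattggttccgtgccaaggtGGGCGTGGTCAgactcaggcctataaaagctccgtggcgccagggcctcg
*Gclm*, chr3:122245307-122245556 (+): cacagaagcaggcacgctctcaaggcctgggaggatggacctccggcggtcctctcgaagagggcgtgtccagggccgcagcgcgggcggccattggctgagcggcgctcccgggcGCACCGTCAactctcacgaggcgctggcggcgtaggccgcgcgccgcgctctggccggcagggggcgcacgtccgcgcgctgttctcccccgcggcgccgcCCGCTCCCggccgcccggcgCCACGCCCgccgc
*Cat*, lost region, chr2:103480436-103480735 (-): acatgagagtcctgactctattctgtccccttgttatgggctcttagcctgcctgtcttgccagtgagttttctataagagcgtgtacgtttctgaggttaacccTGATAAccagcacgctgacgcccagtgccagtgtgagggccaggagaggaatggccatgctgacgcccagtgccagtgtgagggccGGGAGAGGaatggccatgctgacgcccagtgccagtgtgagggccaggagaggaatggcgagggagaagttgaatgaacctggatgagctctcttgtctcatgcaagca

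All 9 genes were matched to RefSeq, with 11 promoters. In the 250 bases before each start, a GATA core was found in 1 of the 11, the upstream promoter of *Pklr*, where AGATAA began 35 bases before the start (position -35). It was found in 26.5% of all 32851 RefSeq promoters in the same window. A CACC box was present in 7 of the 11 (*Bpgm*, *Cat*, *Gclm*, *Gpi1*, *Hk1*, *Prdx2*, and *Sod1*), against 45.9% of all. The internal *Hk1* promoter held 6, some of them overlapping each other, and 2 of these lie in the exonic stretch that is not printed, while 1 more runs into it. The ARE core was present in 3 (*Gclm*, *Hk1*, where it lies in the stretch not printed, and *Sod1*, where it overlaps a CACC box), against 10.2%, and the AP-1/NFE2 core in 0, against 6.75%. The sequence from the lost *Cat* region held 1 GATA core and 1 CACC box. Of 15431 H3K27ac regions without a protein-coding TSS, 52.1% held a GATA core, 27.7% a CACC box, 12.3% an ARE core, and 11.1% an AP-1/NFE2 core in the 300 bases at the middle of the merged region. A match describes the letters only.

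In the values below, the 2 lengths given for a time are those of replicates 1 and 2, and lengths are base pairs covered by peaks. H3K4me3 covered a TSS of all 9 genes in all 10 lists, compared with 43.8% of protein-coding genes. H3K27ac was less complete. It covered a TSS in all 10 lists for 3 of the 9 genes (*Bpgm*, *Cat*, and *Sod1*), compared with 38.6% of all genes and with 87.1% of the 9572 genes that had H3K4me3 in all 10 lists. It was present in 9 lists at *Gpx1*, 7 at *Hk1*, 6 at *Pklr*, and 4 at *Gpi1*, and in no list at *Prdx2* and *Gclm*. Of the 9572 genes, 9.99% had H3K27ac over a TSS in 1 to 9 lists and 2.89% in none.

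**Figure D1:**
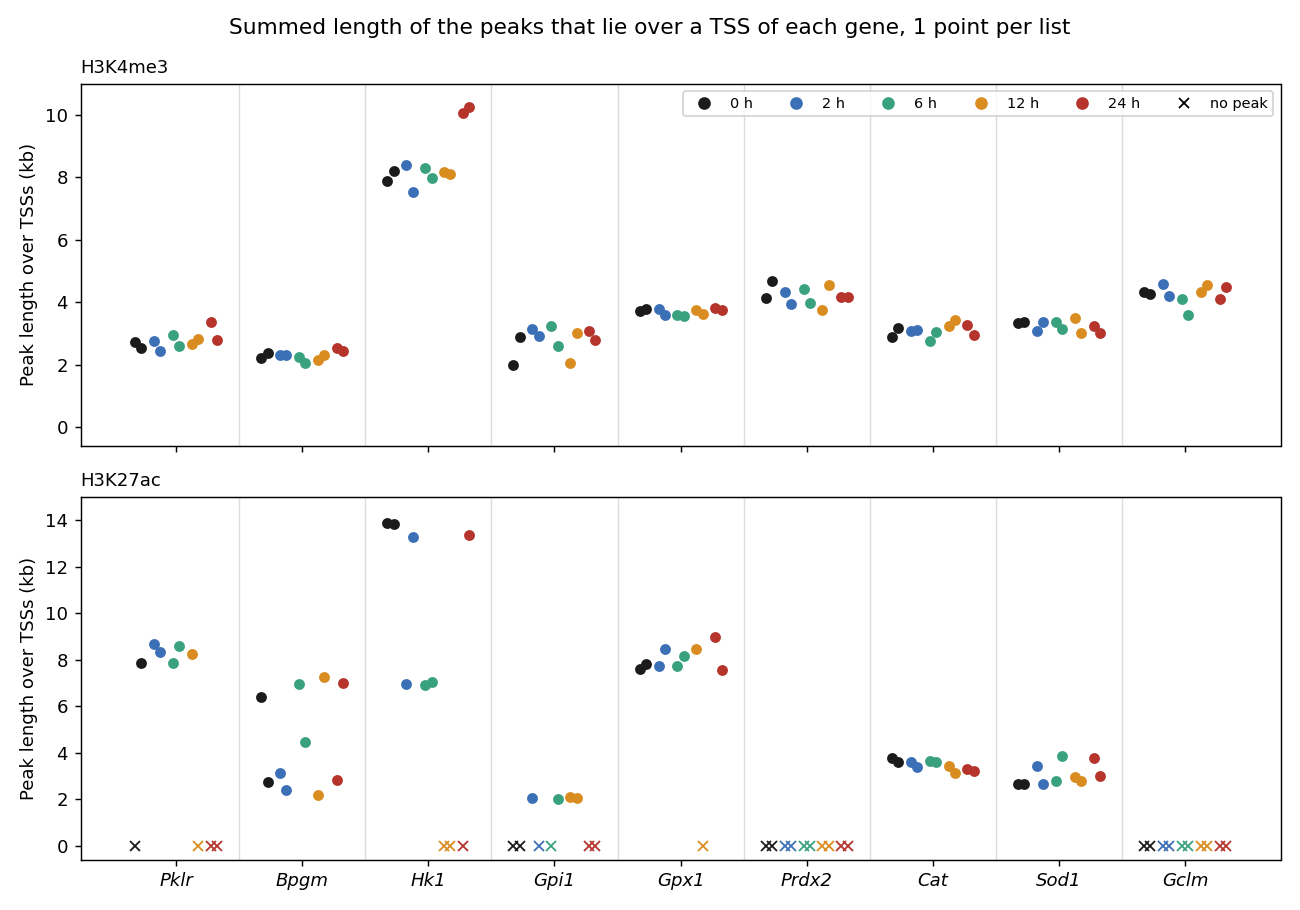
Summed length of the peaks over any TSS of each gene (y axis, kb), 1 point per list, coloured by hours of β-estradiol, with crosses for lists without such a peak. H3K4me3 is present for each gene in all 10 lists, with the 24 h points of *Hk1* at 10059 and 10262 bp, whereas H3K27ac is missing from some lists at *Pklr*, *Hk1*, *Gpi1*, and *Gpx1* and from all 10 at *Prdx2* and *Gclm*.

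Over the 9 loci there were 21 H3K4me3 regions (peaks of the 10 lists merged where they touch), of which 10 held a TSS of the gene itself, 8 a TSS of another gene, and 3 no protein-coding TSS. Of these, 20 were present in all 10 lists and 1 in a single list. There were 25 H3K27ac regions, of which 8 held a TSS of the gene, 5 that of another gene, and 12 none. Here 11 were present in all 10 lists. The covered length was compared with limma on log2(bp + 200), fitted to all regions present in 2 or more lists, which 20 of the 21 and all 25 regions passed, with Benjamini-Hochberg adjustment over all of them. Between 24 h and 0 h, 0 of the 20 H3K4me3 regions passed an adjusted p of 0.05 (1.58% of all regions did), with 2 at an unadjusted p under 0.05 (12.4% of all) and a lowest adjusted p of 0.0553. Of the 25 H3K27ac regions, 1 passed (6.32% of all did) and 5 had an unadjusted p under 0.05 (21.2% of all), a share no higher than that of all regions. For a trend over the 5 time points, 0 H3K4me3 regions passed (0.585% of all) and 0 H3K27ac regions passed (3.54% of all), with 2 and 6 at an unadjusted p under 0.05 (12.6% and 20.9% of all). Peaks in both lists of one time and neither of the other gave 0 gained and 0 lost H3K4me3 regions (0.456% and 3.88% of all), and 0 gained and 2 lost H3K27ac regions (3.43% and 4.18% of all). The median log2 difference was 0.07 for the H3K4me3 regions and 0.15 for the H3K27ac regions, against -0.04 and 0.01 over all regions.

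Summed over each locus, covered length gave no call. In limma fits to 13588 H3K4me3 loci and 13847 H3K27ac loci, 0 of the 9 genes passed at 24 h against 0 h (1.11% and 5.37% of all loci passed). The trend over time gave 0 of 9 for each mark (0.765% and 5.58% of all). At an unadjusted p under 0.05 there were 1 and 2 loci at 24 h (11.6% and 21.0% of all), and 1 and 4 for the trend (11.9% and 21.7% of all). H3K4me3 length was higher at 24 h in 7 of 9 loci with a median log2 difference of 0.04 (-0.03 over all loci), and H3K27ac length was higher in 6 of 9 with a median of 0.12 (0.05 over all loci). With 2 lists at each time, an exact permutation test could give no p smaller than 0.333, and these tests draw on the spread over all loci.

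**Figure D2:**
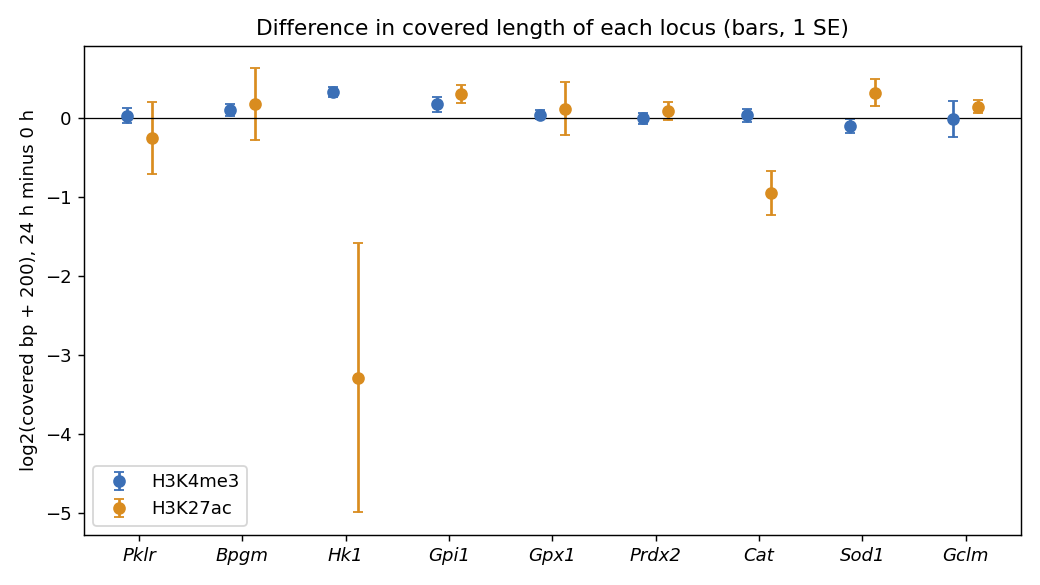
Difference in covered length of each locus between 24 h and 0 h (y axis, log2 of covered bp + 200, bars 1 SE of the limma fit) for H3K4me3 and H3K27ac. H3K4me3 values lie between -0.10 and 0.33 with SEs of 0.06 to 0.23, and H3K27ac at *Hk1* stands at -3.28 with an SE of 1.70.

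Among the glycolytic genes, *Hk1* was the one with a called region, a loss of H3K27ac, and its H3K4me3 was longest at 24 h. The gene (chr10:62268855-62379908, minus strand) has 10 annotated TSSs over 111054 bp, and no list of either mark had a peak at the main TSS, that of the longest principal transcript. Both marks lay inside the gene instead, over internal TSSs, in regions centred at +39.1 kb (chr10:62338241-62343312) and +53.9 kb (chr10:62323162-62328784) for H3K4me3. At +53.9 kb, which spans a TSS, UTR, and coding exons, the H3K4me3 peaks of the 10 lists were 3609 and 3454 bp at 0 h, 3752 and 2906 after 2 h, 3747 and 3444 after 6 h, 3466 and 3379 after 12 h, and 5291 and 5190 bp at 24 h. Both lists at 24 h were longer than each of the other 8. The upstream edge stayed between 51.1 and 52.1 kb from the main TSS, whereas the downstream edge was at 54.7 to 55.4 kb up to 12 h and at 56.6 and 56.7 kb at 24 h. The log2 difference was 0.54 (SE 0.10, limma adjusted p = 0.0553), just outside the threshold. It passed in the replicate block (adjusted p = 0.05, 0.0499592 before rounding) and without either list at 2 h (adjusted p = 0.00958 and 0.00942), and without 1 list at 0 h or 24 h the adjusted p was between 0.177 and 0.269. The peaks at 24 h scored 296 and 317, at percentiles 28.0 and 29.9 of their lists. In the other lists the scores were 533 to 797, at percentiles 38.4 to 44.2. The H3K4me3 peak at +39.1 kb was 4510 ± 319 bp at 0 h versus 4920 ± 215 bp at 24 h (mean ± SD, n = 2; adjusted p = 0.487). For the whole *Hk1* locus H3K4me3 was 8042 ± 209 bp at 0 h versus 10160 ± 144 bp at 24 h (log2 difference 0.33, SE 0.06, adjusted p = 0.0552).

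H3K27ac at *Hk1* was missing from several lists after 2 h. The merged region at +65.7 kb (chr10:62310576-62317760) includes a coding exon, but the stretch covered by both 0 h peaks (chr10:62310672-62312272) held none. H3K27ac in this region covered 1647 and 1739 bp at 0 h, 1752 and 7097 after 2 h, and 0 in both lists at 6 h. It covered 4226 and 1810 bp after 12 h, and 0 in both lists at 24 h. The 0 h and 24 h lists did not overlap, but the peak was absent at 6 h and back at 12 h. The peaks in all 6 lists ended between 69.2 and 69.3 kb from the main TSS, and both 0 h peaks began 67.5 kb or more from it. The peaks of 7097 and 4226 bp extended upstream to 62.1 and 65.0 kb, which sets the centre of the region. This was the only region of the 9 loci that passed at 24 h against 0 h (log2 difference -3.24, SE 0.65, limma adjusted p = 0.0351), and its trend did not pass (adjusted p = 0.351). The size of the difference depends on the 200 bp added to each length, since both lists at 24 h were at 0. It was -5.12 with 50 bp (adjusted p = 0.00951) and -1.43 with 1000 bp, where it did not pass (adjusted p = 0.161). With replicate number as a block it did not pass either (adjusted p = 0.0689). Without 1 list at 0, 6, or 24 h the adjusted p was 0.0608 to 0.144, so that each of these 6 lists was needed for the call. Its peaks scored between 59 and 106, near the lowest score in the lists.

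The H3K27ac peaks over the *Hk1* TSSs came and went between replicates. Around +38.3 kb the lengths were 6989 and 6978 bp at 0 h, 6952 and 6994 after 2 h, 6935 and 0 after 6 h, 0 in both lists at 12 h, and 0 and 7377 bp at 24 h. Around +53.0 kb they were 6916 and 6874 bp at 0 h, 0 and 6303 after 2 h, 0 and 7034 after 6 h, 0 in both at 12 h, and 0 and 6001 bp at 24 h. Peaks at these TSSs were thus either absent or at least 6001 bp long, with scores between 63.8 and 192. A short H3K27ac peak at +104.6 kb, near the end of the gene, was present in 1 list at 0 h and 1 at 2 h. Replicate 1 at 24 h had no H3K27ac peak in the whole locus, and replicate 2 had 13378 bp. The locus total was 15858 ± 432 bp at 0 h versus 6689 ± 9460 bp at 24 h (log2 difference -3.28, SE 1.70, adjusted p = 0.341), a difference smaller than the spread between the lists at 24 h. The value was -0.24 without replicate 1 at 24 h, and -6.33 without replicate 2 at 24 h, where it passed (adjusted p = 0.00671).

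**Figure D3:**
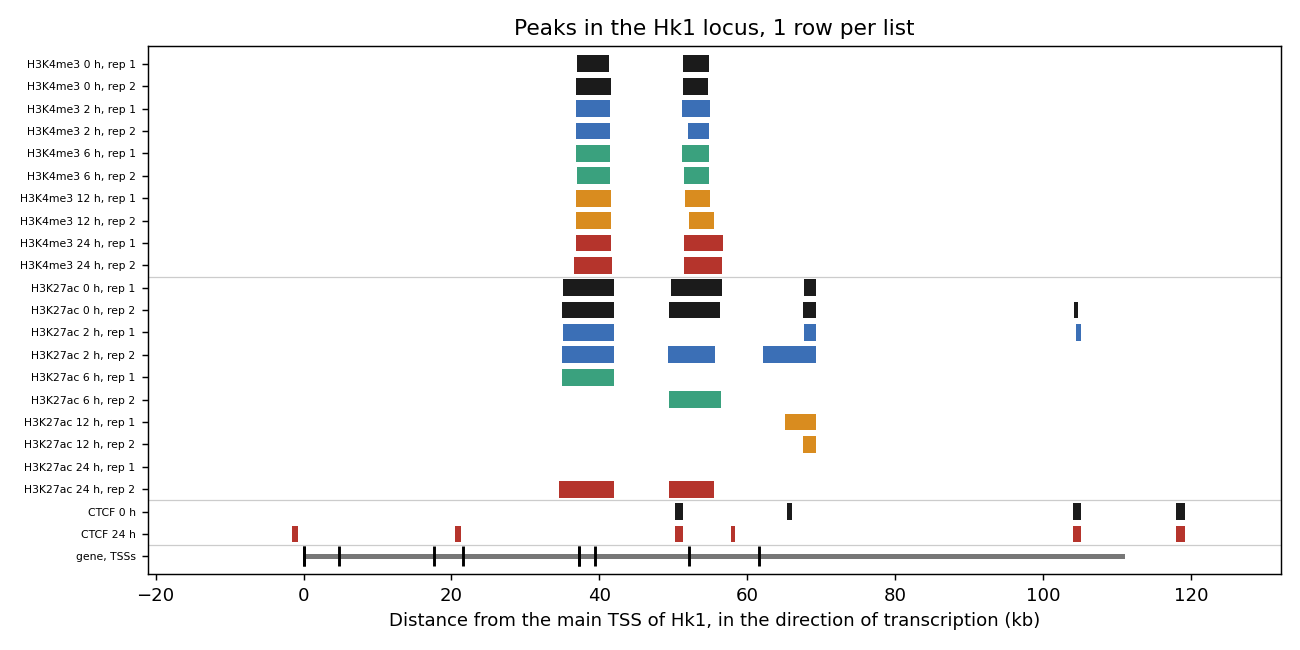
Peaks in the *Hk1* locus, 1 row per list, plotted by distance from the main TSS in the direction of transcription (x axis, kb), with CTCF peaks, the gene body, and annotated TSSs (ticks) in the lowest rows. H3K4me3 is present at both places inside the gene in all 10 lists, and the peak at +53.9 kb reaches farther downstream at 24 h. H3K27ac is missing from many lists after 2 h, with none in replicate 1 at 24 h.

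*Pklr* (chr3:89136142-89146784, plus strand) has an erythroid and a liver first exon, with the erythroid one upstream. Its H3K4me3 peak (chr3:89135633-89139148, TSS, UTR, and coding exons) covered all 3 annotated TSSs in all 10 lists. It was 2736 and 2534 bp at 0 h versus 3382 and 2790 bp at 24 h, and 2434 to 2955 bp in between. The 24 h list with the longest peak lay apart from the other 9, while the other was within their range (log2 difference 0.21, SE 0.11, adjusted p = 0.514; trend adjusted p = 0.375). H3K27ac at the same TSSs (chr3:89130641-89139776) was 0 and 7873 bp at 0 h, 8685 and 8329 after 2 h, 7883 and 8606 after 6 h, 8234 and 0 after 12 h, and 0 in both lists at 24 h. All lists at 2 and 6 h had the peak and both at 24 h lacked it, but 1 list at 0 h lacked it too (log2 difference -2.67, SE 2.11, adjusted p = 0.557). By distance from the main TSS, these 6 peaks began at -5.93 to -5.36 kb and ended at 2.30 to 3.20 kb, whereas H3K4me3 began at -0.94 to -0.75 kb. Their scores fell as length rose, from 155 and 143 at 7883 and 7873 bp to 51.5 at 8685 bp. Whether the 4 lists without a peak had less H3K27ac there cannot be read from the lists.

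Away from the *Pklr* promoter, an H3K27ac region at +10.9 kb (chr3:89146611-89148433) began at the 3′ end of the gene. It lay mostly past that end and overlapped *Hcn3*. Its peaks were 1212 and 842 bp at 0 h, with 0 in 3 of the 4 lists at 2 and 6 h and 1038 bp in the other. They were 1697 and 1587 bp after 12 h, and 1734 and 1128 bp at 24 h. The 0 h and 24 h ranges overlapped (adjusted p = 0.853). Regions at -20.6 and -12.4 kb were present in 5 and 3 lists with scores of 51.0 to 69.0. At *Clk2*, the next gene with a TSS in both marks, H3K27ac was 4115 ± 820 bp at 0 h versus 5310 ± 704 bp at 24 h, with the lowest trend adjusted p of the 25 H3K27ac regions (0.0955). The *Hcn3* promoter had H3K4me3 alone, at 1510 ± 84.1 bp at 0 h versus 1176 ± 39.6 bp at 24 h (log2 difference -0.31, SE 0.12, adjusted p = 0.347). An H3K4me3 peak of 759 bp at +11.3 kb occurred in 1 list at 2 h only. In a setting added after seeing the data, regions that held a peak of 6 kb or longer in any list were left out. This removed the region over the *Pklr* TSSs itself and kept the peaks at the *Clk2* promoter. The log2 difference of H3K27ac over the *Pklr* locus was then 0.47 in place of -0.25 (limma adjusted p = 0.0719 and 0.812), and its trend passed (adjusted p = 0.0382).

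*Bpgm* (chr6:34476207-34505613) had both marks over its TSSs in all 10 lists. H3K4me3 (chr6:34475017-34477577) was 2302 ± 95.5 bp at 0 h versus 2496 ± 79.9 bp at 24 h (adjusted p = 0.605), the shortest H3K4me3 promoter peak of the set by median (2307 bp). The H3K27ac peak had a short and a long form, and both occurred at 0, 12, and 24 h, with 1 list at 6 h in between. It was 6384 and 2741 bp at 0 h, 3114 and 2410 after 2 h, 6953 and 4477 after 6 h, 2161 and 7244 after 12 h, and 2849 and 7021 bp at 24 h. The 4 long peaks began at -5.87 to -5.44 kb from the TSS and scored 85.4 to 115, and the 5 short ones began at -1.77 to -1.18 kb and scored 221 to 377. At 0, 12, and 24 h the replicates differed by more than the means of any 2 time points (log2 difference 0.09, SE 0.69, adjusted p = 1). Downstream of the gene at +31.5 kb, a region of 1227 to 1587 bp was present in all 10 lists, and those at -12.5 and +9.9 kb (intron) in 8 and 7 lists.

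At *Gpi1* (chr7:34201330-34230336, minus strand), H3K4me3 over the TSS (chr7:34227836-34231171) was 1988 and 2899 bp at 0 h versus 3076 and 2810 bp at 24 h (adjusted p = 0.712). Its scores of 223 to 643 lay between percentiles 26.1 and 42.4 of their lists. H3K27ac over the TSS (chr7:34229088-34231171) was a peak of 2004 to 2082 bp in 4 lists, 1 each at 2 and 6 h and both at 12 h, and was in neither list at 0 h and neither at 24 h. Unlike the H3K27ac peaks over the TSSs of *Pklr* and *Hk1*, these peaks were short. Their scores of 91.5 to 152 lay within the ranges at those TSSs (51.5 to 155 and 63.8 to 192). A second domain 3.5 kb upstream of the TSS (chr7:34231734-34236008), between protein-coding genes, carried both marks in all 10 lists. This domain holds annotated starts of *Gm12758* and *Gm12762*, which are not protein-coding genes. There H3K27ac was 3312 and 3381 bp at 0 h versus 3674 and 4275 bp at 24 h, longer in both lists at 24 h than in both at 0 h (log2 difference 0.23, SE 0.09, adjusted p = 0.188; trend adjusted p = 0.108). At *Pdcd2l*, on the far side of the gene, H3K27ac was 2053 and 1649 bp at 0 h versus 2614 and 2174 bp at 24 h (log2 difference 0.34, SE 0.13, adjusted p = 0.21). A further H3K27ac region at +40.7 kb was present in 9 lists. The *Gpi1* locus as a whole had 6216 ± 665 bp at 0 h versus 7722 ± 93.3 bp at 24 h (log2 difference 0.31, SE 0.12, adjusted p = 0.189).

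Among the antioxidant genes, *Sod1* had the promoter peaks that ranked highest by score for H3K27ac, and *Gpx1* for H3K4me3. *Sod1* (chr16:90220754-90226329) had H3K27ac of 2640 and 2659 bp at 0 h, 3409 and 2644 after 2 h, 2804 and 3856 after 6 h, 2959 and 2801 after 12 h, and 3767 and 2998 bp at 24 h. Both 24 h lists were longer than both 0 h lists, but 1 list at 6 h was longer still (log2 difference 0.32, SE 0.18, adjusted p = 0.403). Its scores of 461 to 856 lay between percentiles 74.4 and 93.6 of their lists, the highest H3K27ac percentiles among the promoters of the 9 genes. H3K4me3 at *Sod1* was 3359 ± 39.6 bp at 0 h versus 3123 ± 154 bp at 24 h (adjusted p = 0.724). An H3K27ac region 6.8 kb upstream, between genes, was present in all 10 lists with 812 to 1756 bp (adjusted p = 0.582).

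*Gpx1* (chr9:108338903-108340343) had the highest H3K4me3 scores by median percentile, with scores of 1349 to 1834 between percentiles 80.8 and 90.7 of their lists. Its H3K4me3 length was 3748 ± 44.5 bp at 0 h versus 3798 ± 47.4 bp at 24 h (log2 difference 0.02, SE 0.05, adjusted p = 0.95), among the least variable of the set. The H3K27ac peak (chr9:108336593-108345557) ran past the 1441 bp gene to 6.01 to 6.50 kb downstream of the TSS. It was 7603 and 7798 bp at 0 h, 7722 and 8473 after 2 h, 7722 and 8176 after 6 h, 8468 and 0 after 12 h, and 8960 and 7572 bp at 24 h. Here too the score fell with length, from 217 at 7722 bp to 50.6 at 8960 bp, which is next to the lowest score that the lists hold. The time points did not separate (adjusted p = 1). The promoter of *Usp4*, 9.6 kb downstream, had both marks in all 10 lists, with H3K27ac of 3652 to 5274 bp (adjusted p = 0.549).

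*Cat* (chr2:103453849-103485160, minus strand) was the one antioxidant gene with an H3K27ac loss. Its second H3K27ac region, 4.7 kb into the gene and within an intron (chr2:103478968-103481931), was 2882 and 2610 bp at 0 h, 2569 and 0 after 2 h, 2633 and 2200 after 6 h, 0 and 1940 after 12 h, and 0 in both lists at 24 h. Peaks were present in both lists at 0 and 6 h, 1 at 2 h, 1 at 12 h, and none at 24 h. The fit over the 10 lists did not call it (log2 difference -3.88, SE 1.44, limma adjusted p = 0.188). It was called when only the 4 lists at 0 and 24 h entered (SE 0.16, limma adjusted p = 0.00716). That fit leaves out the times at which replicates differed, 2 and 12 h. The loss was defined by presence in the same 4 lists, so this call is no separate support for it. Here too the size depends on the 200 bp, with -5.80 for 50 bp and -1.90 for 1000 bp, and it was -1.91 with the same number of best-scoring peaks from every list (adjusted p = 0.208, 0.163, and 0.6). Its peaks scored 50.9 to 99.3. The adjoining H3K27ac peak over the TSS (chr2:103482158-103486257) was in all 10 lists, with 3776 and 3623 bp at 0 h versus 3291 and 3230 bp at 24 h. It was shorter in both lists at 24 h without passing the test (log2 difference -0.17, SE 0.06, limma adjusted p = 0.172). Its scores were 196 and 206 at 0 h, at percentiles 43.7 and 43.2 of their lists. At 24 h they were 290 and 247, at percentiles 54.8 and 51.1. H3K4me3 at *Cat* was 3036 ± 221 bp at 0 h versus 3119 ± 246 bp at 24 h (adjusted p = 0.924). The locus total of H3K27ac was 6446 ± 301 bp at 0 h versus 3260 ± 43.1 bp at 24 h (log2 difference -0.94, SE 0.28, unadjusted p = 0.0122, limma adjusted p = 0.111).

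*Prdx2* and *Gclm* carried H3K4me3 without an H3K27ac peak over a TSS in any list. At *Prdx2* (chr8:84969587-84974834), H3K4me3 (chr8:84967500-84972287, which also holds TSSs of *Rnaseh2a* and *Gm49661*) was 4423 ± 392 bp at 0 h versus 4166 ± 7.78 bp at 24 h (adjusted p = 0.827). Its scores of 249 to 553 lay between percentiles 30.2 and 37.1. The locus is crowded, with 5 H3K4me3 regions in all 10 lists totalling 16821 to 19170 bp, and the one at *Junb* alone was 6755 to 7447 bp. The others lay at *Rnaseh2a*, at *Hook2*, and at +16.2 kb between genes, with adjusted p from 0.602 to 0.85 for these 3. The single H3K27ac region of the locus was at *Hook2*, 20.6 kb downstream, with 2232 to 2751 bp in all 10 lists (adjusted p = 0.674).

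At *Gclm* (chr3:122245557-122270732), H3K4me3 (chr3:122244615-122249362) was 4298 ± 55.2 bp at 0 h versus 4300 ± 266 bp at 24 h (log2 difference -0.00056, SE 0.08, adjusted p = 1), with scores of 855 to 1667. The only H3K27ac region of the locus was at the neighbouring *Dnttip2*, at 2767 bp in both lists at 0 h and 3009 and 3168 bp at 24 h (adjusted p = 0.249; trend adjusted p = 0.103). H3K4me3 at *Dnttip2* was 2631 to 2782 bp in 6 lists and 4812 to 5465 bp in 4, and replicates fell on different sides at 0, 2, 12, and 24 h. In both loci a neighbouring promoter thus had H3K27ac in all 10 lists. At *Prdx2* this was *Hook2* alone, and the nearer promoters of *Rnaseh2a* and *Junb* had no H3K27ac peak in any list.

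**Figure D4:**
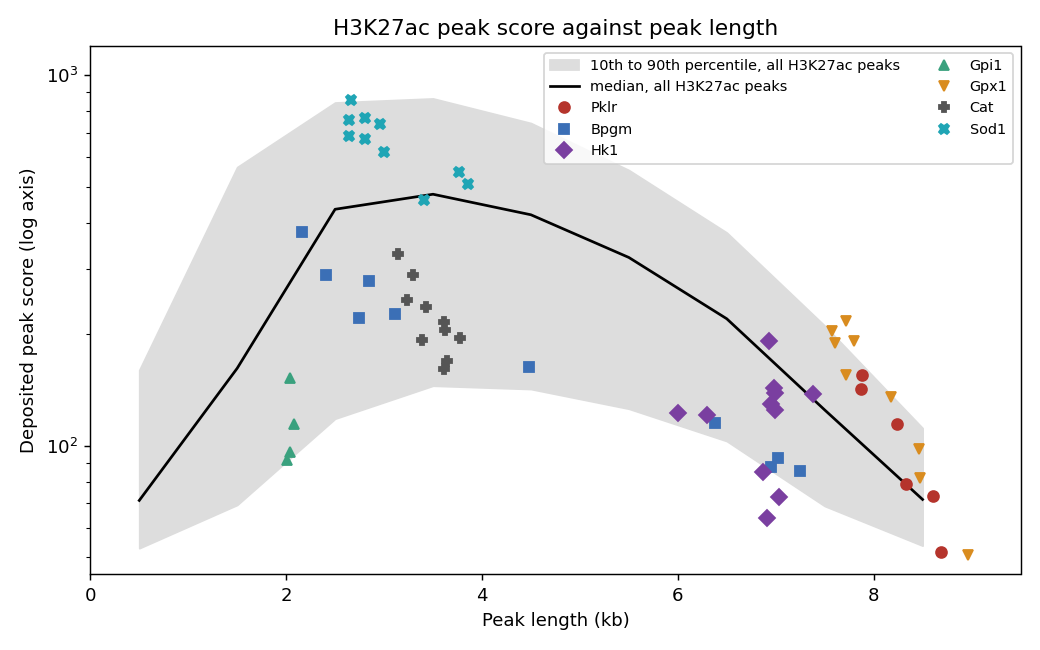
Score of each H3K27ac peak over a TSS of the named genes (y axis, log scale) against its length (x axis, kb), with the median (line) and 10th to 90th percentile (band) of all H3K27ac peaks by length. The peaks of *Pklr*, *Gpx1*, and *Hk1* are all 6 kb or longer, where the median score of all peaks falls from 220 to 71.6, and *Sod1* lies at scores of 461 or more at 2640 to 3856 bp.

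CTCF was compared between 1 list at 0 h and 1 at 24 h, which held 33193 and 41473 peaks, so no test was possible. Of 38 CTCF regions in the 9 loci, 28 were in both lists, 1 at 0 h only, and 9 at 24 h only (23.7%, against 25.1% of all 43987 regions). CTCF covered a TSS of *Pklr*, *Gpi1*, and *Gclm* in both lists. Over the *Gclm* TSS it was 699 bp at 0 h versus 1701 bp at 24 h. The 1 region at 0 h only (558 bp, score 56.6) lay at chr10:62313948-62314505 in *Hk1*, inside the merged region that lost H3K27ac but outside the H3K27ac peaks of both 0 h lists. A peak of 1338 bp at 24 h only (score 87) lay in the H3K27ac region at +10.9 kb of *Pklr*. The *Sod1* locus held no CTCF peak, and all regions at *Cat* and *Gpi1* were in both lists.

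Other genes of the same pathways were examined for comparison. Of 17 other glycolysis genes, 7 pentose phosphate genes, and 19 other antioxidant genes, 13, 7, and 17 had H3K4me3 over a TSS in all 10 lists, and 9, 4, and 14 had H3K27ac in all 10. Of these, 15, 7, and 18 loci were tested for each mark. For H3K4me3, 0 of these 40 loci passed at 24 h or for the trend, with 4 at an unadjusted p under 0.05 at 24 h (11.6% of all loci). For H3K27ac, 6 of 40 had an unadjusted p under 0.05 (21.0% of all loci), and 1 passed at 24 h (5.37% of all), *Pfkm*, a phosphofructokinase subunit (log2 difference 0.61, SE 0.09, adjusted p = 0.0153; trend adjusted p = 0.00903). For the H3K27ac trend, 1 of 15, 0 of 7, and 1 of 18 loci of the 3 lists passed, against 5.58% of all loci. These were *Pfkm* and *Prdx1*, a peroxiredoxin. *Prdx1* passed for the trend alone (0.12 per time point, limma adjusted p = 0.0464). Its log2 difference at 24 h was 0.47 (limma adjusted p = 0.0992). The median log2 differences of the 3 lists for H3K27ac were 0.09, 0.03, and 0.09, against 0.05 over all loci. Of 7 erythroid marker loci in the same H3K27ac fit, 3 were longer at 24 h, *Slc4a1*, *Alas2*, and *Hbb-bt* (log2 differences 0.75, 0.93, and 1.31, adjusted p = 0.018, 0.0215, and 0.0309). The other 4 did not pass, with log2 differences of 0.26 for *Klf1*, -0.63 for *Tal1*, -0.91 for *Tfrc*, and -2.75 for *Epor* (adjusted p = 0.648, 0.0621, 0.209, and 0.536).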

How the data were processed

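The data were 22 ChIP-seq peak lists from G1ER cells, for H3K4me3, H3K27ac, or CTCF. By the sample titles they form 12 groups, 1 for each target and time in β-estradiol. The study describes its ChIP-seq replicates as independent experiments. Reads of the histone libraries were aligned by the authors to mm10 (Bowtie2, default settings). From the unique alignments MACS, run without its model step, gave peaks for each library. The MACS version, threshold, and control, and the methods for CTCF, are not given in the sources used here. The sample labels name a human build, but positions matched the mouse annotation. The labels and the methods give different catalogue numbers for the H3K4me3 antibody. The deposited score, per the peak names and its lowest value of 50 taken to be minus 10 times log10 of the p-value, is not comparable between libraries. Chromosome, start, and end are the other deposited values. No read counts were used here, so depth and the precision it gives are unknown.

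Positions were written 1-based. Peaks of the 10 lists of each mark were merged into regions wherever they touched, and overlap meant at least 1 bp. Distances are from region centre to the main TSS (longest transcript of the best APPRIS level, GENCODE M21). Covered length was tested with limma 3.58.1 (R 4.3.3; lmFit, eBayes with trend) on log2(bp + 200), with a mean for each time point, for regions or protein-coding loci with a peak in at least 2 lists. The trend used the rank of the 5 time points. Called means an adjusted p under 0.05. The step was tested on data simulated with normal noise around the real means. Lengths that are 0 in some lists and several kb in others do not follow the normal noise assumed by limma. The simulation therefore does not bear on calls in such regions. All 9 genes are named, and of the pathway lists up to 3 called loci per list, mark, and direction with the largest difference at 24 h. *Prdx1* and the erythroid loci were named after their values were seen. The genes and lists were chosen with earlier results of these data known. The values of a marker gene and the sequence of a region are not reported here. Python 3.11.15 with numpy 2.4.6, pandas 2.3.3, and matplotlib 3.10.9 was used.

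Alternatives were pseudocounts of 50 and 1000 bp, peaks in at least 1 or 5 lists, lengths scaled by the list's median, a replicate block, a fit to 4 lists, only peaks that reached the median score of the mark, the same number of best-scoring peaks from every list, merging within 500 bp, flanks of 5 and 50 kb, 50% overlap, 1 TSS per gene, leaving out each list, and, added after seeing the data, leaving out regions with a peak of 6 kb or longer. Replicate numbers did not pair the lists, since the deviations of replicate 1 correlated between time points by -0.08 to 0.03 for H3K4me3 and -0.03 to 0.02 for H3K27ac.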

Additional observations from a re-analysis of the deposited data

How the results depend on the processing

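Counts for the 9 genes were recomputed under 214 alternative settings in all over 12 results, of which 180 stayed within 1.5 times the count reported, and 34 did not. Most of the 12 counts reported were 0, and these were taken as unchanged only where they stayed 0. With replicate number as a block, which the data did not support as a pairing, 1 H3K4me3 region (*Hk1* at +53.9 kb, adjusted p = 0.05) and 0 H3K27ac regions (*Hk1* at +65.7 kb, adjusted p = 0.0689) passed at 24 h against 0 h, and the block changed no other call. The H3K4me3 count of regions was also 1 with a pseudocount of 1000 bp, with peaks in at least 1 list, and in the fit to 4 lists. The H3K27ac count of regions was 2 in the fit to 4 lists, both of them regions whose loss was defined in the same lists. It was 0 with a pseudocount of 1000 bp, with higher-scoring peaks, and without regions holding a peak of 6 kb or longer. That last setting was chosen after seeing the data and removed the *Hk1* region at +65.7 kb itself. Of H3K4me3 loci, 1 (*Hk1*, adjusted p = 0.0471) passed without such long regions. Of H3K27ac loci, 1 (*Cat*, adjusted p = 0.0342) passed in the fit to 4 lists, and 1 (*Pklr*) for the trend without long regions. H3K27ac regions gained or lost numbered 1 with higher-scoring peaks, with equal numbers of peaks, and when merged within 500 bp. With higher-scoring peaks (score of 241.89 or more) neither lost region entered, and the 1 was a gain at the *Cat* TSS. Its peaks scored 196 and 206 at 0 h, below that cutoff, and 290 and 247 at 24 h. With equal numbers of peaks, and when merged within 500 bp, the 1 was the loss at *Hk1*. With higher-scoring peaks, 4 genes had H3K4me3 and 1 (*Sod1*) had H3K27ac over a TSS in all 10 lists, since fewer peaks entered. Leaving out 1 list gave 0 to 1 called regions and 0 to 1 called loci at 24 h for each mark, 0 to 1 loci for the H3K27ac trend, and 2 to 6 H3K27ac regions gained or lost, where the list left in an arm alone was assumed to vary like the others. The locus calls gained were *Hk1* for H3K4me3 without either list at 2 h (adjusted p = 0.026 and 0.0257), *Cat* for H3K27ac without either list at 2 h (0.0443 in both), and *Hk1* for H3K27ac without replicate 2 at 24 h. For the trend they were *Cat* without replicate 2 at 2 h and *Hk1* without replicate 2 at 24 h. The counts of 6 and 4 regions gained or lost came without replicate 1 at 0 h and replicate 2 at 24 h. Of 392 alternative values of the 18 log2 differences per locus, 23 changed sign, none of them called. With lengths scaled by the list's median the H3K4me3 difference was -0.029 at *Pklr*, -0.017 at *Gpx1*, -0.063 at *Prdx2*, and -0.024 at *Cat*. With 50 kb flanks H3K4me3 was -0.032 at *Gpx1*, -0.0019 at *Prdx2*, and 0.0062 at *Gclm*, and H3K27ac was 0.031 at *Pklr*. H3K27ac was 0.12 at *Pklr* and 4.11 at *Cat* with higher-scoring peaks, 0.47 at *Pklr* without long regions, and -0.68 at *Gpx1* with equal numbers of peaks. Leaving out 1 list, the H3K4me3 difference ranged from -0.028 to 0.094 at *Pklr*, -0.024 to 0.026 at *Prdx2*, -0.039 to 0.11 at *Cat*, and -0.23 to 0.22 at *Gclm*, and the H3K27ac difference from -0.83 to 0.32 at *Pklr*, -0.22 to 0.58 at *Bpgm*, and -0.045 to 0.22 at *Prdx2*. Except where the setting itself removes peaks, regions, or lists, the cause was not tested. Depth is unknown, so no lower limit on a detectable difference can be given.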
